A study of Mus musculus with 2 samples.

Results

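Trem2, its signalling adaptor Tyrobp and 8 genes known from disease-associated microglia (Clec7a, Cst7, Itgax, Spp1, Lpl, Cd9, Gpnmb and Lgals3) were read in single-cell RNA sequencing of mouse prefrontal microglia. The 10 genes were chosen by symbol. Of them, 9 were found among the 32589 features counted in both libraries, and Clec7a was not analysed here. The cells were taken from prefrontal cortex of C57BL/6 mice given vehicle or corticosterone by oral gavage, a model of depression with raised glucocorticoid. Both groups shared strain, tissue, warm enzymatic dissociation and a flow cytometry sort for CD45low CD11b+ cells, and each group was 1 Singleron GEXSCOPE library. Dose, duration, age, sex and the number of animals in a library are not given in the sources used here. With 1 library per group no test between the groups was possible, and the treatment cannot be told apart from any other difference between the 2 libraries.

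TREM2 is a surface receptor of microglia and other macrophages that binds lipids and the debris of dying cells. It has no signalling motif of its own and relies on TYROBP (DAP12), whose phosphorylated tail recruits the kinase SYK. In mouse models of amyloid deposition and demyelination, microglia near the lesion lower their homeostatic genes and raise a programme of lysosomal, lipid and adhesion genes, the later stage of which needs TREM2. The 8 other genes examined belong to that programme.

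Levels are given as CPM, the number of unique molecular identifiers (UMIs, tags that count each captured transcript a single time) of a gene per 1e6 UMIs summed over the cells of a class in a library. Differences are log2 ratios of CPM, corticosterone over vehicle. The 95% intervals in brackets cover counting error only, not the spread between animals. Of 10500 vehicle and 17883 corticosterone cells, 7869 (74.9%) and 15273 (85.4%) were microglia-like by 12 marker genes, none of them a gene under study, with a median of 3184 and 4002 UMIs per cell. Clustering, done without the 10 genes, put most microglia-like cells of the 2 libraries in different clusters. Cluster 1 held 7251 of the vehicle cells, and clusters 0 and 2 held 8767 and 5549 of the corticosterone cells. The other classes of at least 50 cells in each library were border-associated macrophage-like (1078 and 799 cells), neutrophil-like (453 and 397), monocyte-like (50 and 61) and erythroid cell-like (163 and 79). Cluster 8, led by class II histocompatibility genes (183 and 90 cells), and cluster 4, of low UMI count (665 and 1160 cells), stayed unnamed. The libraries shared 104 cell barcodes, 0.985% of those in vehicle, and cells of a shared barcode were no more alike (median r of 0.460) than cells of different barcodes (0.479).

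The sequence directly upstream of the RefSeq start is shown for Trem2 and for the pair whose levels differed by over 2-fold in microglia-like cells, Itgax and Spp1, as context for a steroid treatment. Each is 250 bases on the plus strand of GRCm38.p6. Capitals mark matches, on either strand, to 3 searched letter patterns, which did not overlap in these windows. TGANTCA, where N is any letter, is a looser pattern that takes in AP-1 type sites. ACANNNTGT gives the letters shared by glucocorticoid response elements, and GAGGAA the core of a PU.1 type site.
Trem2 at chr17:48346151-48346400: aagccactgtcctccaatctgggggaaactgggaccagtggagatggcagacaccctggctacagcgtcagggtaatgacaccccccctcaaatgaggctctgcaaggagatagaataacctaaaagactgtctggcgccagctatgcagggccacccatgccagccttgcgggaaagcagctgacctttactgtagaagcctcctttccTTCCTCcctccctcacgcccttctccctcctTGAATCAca
Itgax at chr7:128129300-128129549: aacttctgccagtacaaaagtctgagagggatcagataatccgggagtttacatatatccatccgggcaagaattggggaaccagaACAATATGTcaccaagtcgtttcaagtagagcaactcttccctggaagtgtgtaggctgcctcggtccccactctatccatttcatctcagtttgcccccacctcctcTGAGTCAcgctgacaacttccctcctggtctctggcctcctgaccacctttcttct
Spp1 at chr5:104434861-104435110: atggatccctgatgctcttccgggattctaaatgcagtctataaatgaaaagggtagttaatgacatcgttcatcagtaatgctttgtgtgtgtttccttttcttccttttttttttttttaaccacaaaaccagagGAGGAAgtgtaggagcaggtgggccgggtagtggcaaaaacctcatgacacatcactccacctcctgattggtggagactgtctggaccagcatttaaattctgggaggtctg
ACANNNTGT occurred in Itgax, 164 bases before the start, and in Gpnmb, among the 8 genes that had a window, against 5.84% of all 32851 RefSeq windows of this length. TGANTCA occurred in Trem2, 9 bases before the start, and in Itgax, 56 bases before it, against 6.75% of windows. GAGGAA occurred in Trem2, Spp1 and Clec7a, against 23.3% of windows. Each match describes letters and is not evidence of binding.

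The receptor was lower and the adaptor close to level in microglia-like cells after corticosterone. Trem2 (chr17:48346401-48354147, GRCm38) was at 2036 CPM under vehicle and 1370 CPM under corticosterone, from 65018 and 97942 UMIs. The log2 ratio was -0.57 [-0.59, -0.56], a level 1.49-fold lower, and 6.87% of the 9676 genes with a mean of at least 5 CPM had a lower ratio. Tyrobp (chr7:30413760-30417585) was at 2338 CPM under vehicle and 2470 CPM under corticosterone, a log2 ratio of 0.08 [0.07, 0.09]. Over all microglia-like cells the receptor and its adaptor thus differed in opposite directions, Trem2 by the larger size. Within the clusters that held most cells, Trem2 had log2 ratios of -0.66 in cluster 0, -0.44 in cluster 1 and -0.53 in cluster 2, each with an interval below 0. The Tyrobp ratio was -0.15 in cluster 0 and 0.08 in cluster 2, each with an interval clear of 0. In cluster 1 it was -0.05 [-0.12, 0.02]. Its direction thus differed between clusters 0 and 2, which held only 169 and 403 vehicle cells.

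Cd9, a tetraspanin of the cell surface, was higher after corticosterone. It was at 1247 CPM under vehicle and 1742 CPM under corticosterone, a log2 ratio of 0.48 [0.47, 0.50]. Within clusters 0, 1 and 2 its ratio was 0.20, 0.29 and 0.49, positive in each.

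The 5 sparser genes with more than 3 UMIs in either library did not share a direction. Itgax, the integrin alpha chain CD11c, was at 4.76 CPM under vehicle and 11.2 CPM under corticosterone (152 and 804 UMIs), a log2 ratio of 1.24 [0.989, 1.5001]. Spp1, the secreted glycoprotein osteopontin, was at 1.53 CPM and 12.8 CPM (49 and 917 UMIs), a log2 ratio of 3.06 [2.65, 3.51]. Lpl, the lipoprotein lipase that frees fatty acids from lipoproteins, was at 11.1 CPM and 17.5 CPM, a log2 ratio of 0.66 [0.49, 0.84]. These 3 were higher in corticosterone. Cst7, the cysteine protease inhibitor cystatin F, was at 16.5 CPM under vehicle and 9.43 CPM under corticosterone, a log2 ratio of -0.81 [-0.97, -0.64]. Lgals3, the sugar-binding galectin-3, was at 4.73 CPM and 3.23 CPM, a log2 ratio of -0.55 [-0.85, -0.24]. Gpnmb, a transmembrane glycoprotein of stressed phagocytes, gave 1 UMI in vehicle and 3 in corticosterone, no more than the 3 counts that a count of 0 allows, so no ratio is given for it.

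**Figure D1:**
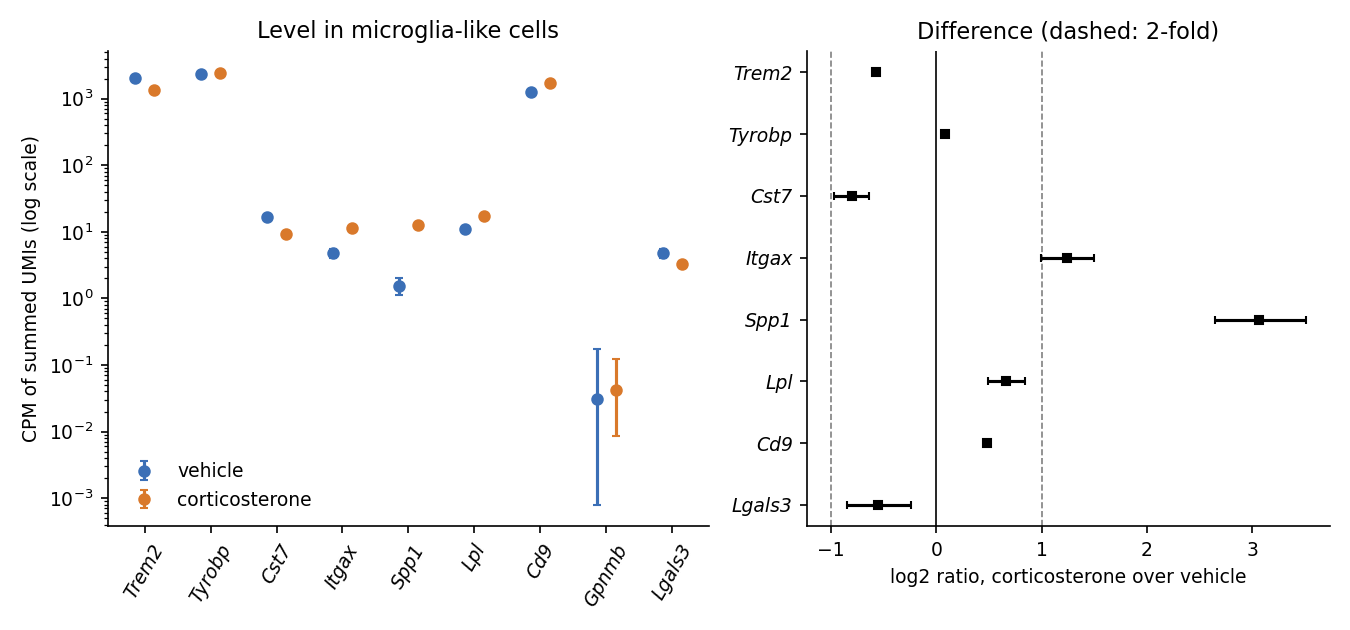
Levels of the 9 genes in microglia-like cells (left, CPM on a log axis, blue vehicle and orange corticosterone) and log2 ratios of the 8 genes above 3 UMIs (right, dashed lines at 2-fold). Points are summed libraries and bars are 95% Poisson or exact conditional intervals for counting error, with 1 library per group. Only Itgax and Spp1 lie beyond the right dashed line, Trem2, Cst7 and Lgals3 lie left of 0, and Tyrobp lies close to 0.

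Of the 8 genes with more than 3 UMIs in a library, 5 were higher and 3 were lower in corticosterone, with a median log2 ratio of 0.28. With Gpnmb, whose counts are too few to place it, the median over 9 genes was 0.42. The median over the 9676 genes was -0.01. A 2-fold difference was reached by 2 of the 7 genes with a mean of at least 5 CPM, Itgax and Spp1, both higher in corticosterone, where 2.24% of the 9676 genes were 2-fold higher, 2.05% were 2-fold lower and 4.29% were 2-fold different in either direction. Both passed the minimum of 5 CPM through the corticosterone library alone. With finer clusters (Leiden resolution 1.0) the ratio of Itgax was -0.0024 and that of Lpl -1.53, but there a cluster of 5575 vehicle and 141 corticosterone cells, led by the endothelial marker Pecam1, went unnamed and out of the sums, which left 2166 vehicle cells as microglia-like. With cells thinned to 1000 UMIs before summing, Spp1 alone was past 2-fold. Under a per-cell marker rule that kept 987 and 1465 cells neither was called: Itgax was at 0.52 [-0.50, 1.66] and Spp1 gave no ratio.

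These differences came with differences in markers of other cells, and in the median mitochondrial share of UMIs (2.45% in vehicle and 4.10% in corticosterone), within the microglia-like sums. The 10 monocyte markers summed to 341 CPM under vehicle and 154 CPM under corticosterone, with 7 of 10 higher in corticosterone. The 12 neutrophil markers summed to 926 and 700 CPM (2 of 12 higher), the 12 border-associated macrophage markers to 337 and 339 CPM (1 of 12 higher) and the 11 dendritic cell markers to 82.9 and 117 CPM (7 of 11 higher, Ccr7 at 0 in vehicle and Klrd1 at 0 in corticosterone). The 8 endothelial markers summed to 40.7 and 6.00 CPM, the 7 erythroid markers to 53.5 and 31.5 CPM and the 6 astrocyte markers to 208 and 92.7 CPM. Their part in the ratios was not tested.

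The Spp1 difference rested on very few cells. In the corticosterone library 84 of 15273 microglia-like cells (0.550%) held an Spp1 UMI, 1 cell held 272 of the 917 UMIs (29.7%), and the 10 highest cells held 90.1%. In vehicle 19 of 7869 cells (0.241%) held the 49 UMIs, and the 10 highest held 81.6%. Without the highest cell of each library the log2 ratio was 2.96. Lpl was spread more widely, with its 10 highest cells holding 55.5% of UMIs in vehicle and 33.2% in corticosterone. For Itgax the 10 highest cells held 19.1% and 6.47%, and for Cst7 11.8% and 10.98%. In contrast, the 1% of cells highest in a gene held 7.43% of Trem2 UMIs in vehicle and 4.54% in corticosterone, against 6.55% and 3.42% expected from the total UMIs of those cells. Trem2 UMIs were thus spread over nearly all microglia-like cells. Neutrophil-like barcodes also held Trem2, at 1156 CPM under vehicle and 462 CPM under corticosterone. The part of RNA from other cells in this spread was not tested.

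At a finer resolution of the clustering, again made without these genes, a cluster of 124 microglia-like cells was led by Gdf15, Lpl, Nes, Csf1, Fam20c, Gas2l3, Srxn1, Il4i1, Pdcd1 and Cst7. It was picked because it had the most of the genes under study among its leading genes, so its levels are a description. It held 61 vehicle cells (0.775% of microglia-like cells) and 63 corticosterone cells (0.412%), with median UMI counts of 4303 and 5163. In corticosterone it held 817 of the 917 Spp1 UMIs (89.1%), in 10 of its 63 cells, at 2068 CPM against 1.41 CPM in the other microglia-like cells. In vehicle it held 14 of 49 Spp1 UMIs, in 2 of its 61 cells, at 42.6 CPM against 1.11 CPM. Without this cluster the Spp1 log2 ratio in microglia-like cells was 0.34, and Itgax alone remained past 2-fold, at 1.34.

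Most of the other sparse genes were also high in that cluster in both libraries, each from a minority of its cells. Lpl was found in 14 of 61 vehicle and 26 of 63 corticosterone cells, and Lgals3 in 15 and 16. Itgax was found in 12 and 17, and Cst7 in 11 and 28. Lpl was at 466 CPM under vehicle and 1151 CPM under corticosterone against 6.33 and 11.2 CPM in the other microglia-like cells. Lgals3 was at 131 and 213 CPM against 3.42 and 2.07 CPM. Itgax was at 57.8 and 116 CPM against 4.21 and 10.7 CPM, and Cst7 at 57.8 and 175 CPM against 16.0 and 8.51 CPM. Cd9 was 2.39-fold and 2.17-fold higher in the cluster than in the other cells. The receptor and adaptor were not set apart to this degree: Trem2 was 0.926-fold in vehicle and 1.18-fold in corticosterone, and Tyrobp was 1.13-fold and 1.12-fold. Gpnmb gave no UMI in the cluster, where 3 counts would be 9.13 CPM in vehicle and 7.59 CPM in corticosterone.

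**Figure D2:**
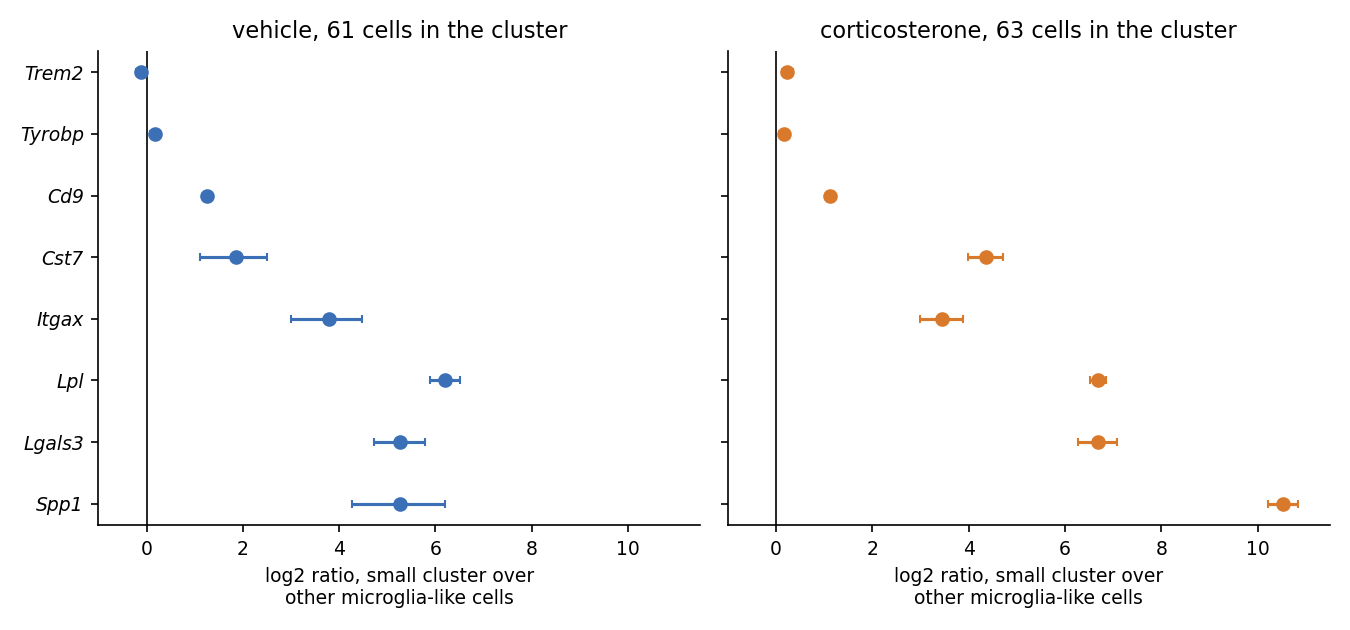
Log2 ratio of CPM in the cluster of 124 cells over the other microglia-like cells of the same library (x axis) for 8 genes, with 95% counting intervals, left vehicle and right corticosterone. Trem2 and Tyrobp lie near 0 in both libraries, Cd9 lies near 1, and Lpl, Lgals3 and Spp1 lie above 5.

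The cluster's leading genes themselves differed between the libraries, so its size is not compared. The same held for the larger clusters, and ratios within them ran against the pooled ratio for some genes. Lpl was higher in corticosterone over all microglia-like cells, but its log2 ratio was -1.79 in cluster 0 and -2.18 in cluster 2. In cluster 1 it was -0.82 [-2.71, 0.55], from 4 corticosterone UMIs, and the interval included 0. In vehicle, Lpl was at 72.0 CPM in the 169 cells of cluster 0 and 8.98 CPM in the 7251 cells of cluster 1. Itgax had ratios of -1.48, 1.29 and 0.30 [-0.95, 1.94] in clusters 0, 1 and 2. Cst7 had ratios of -2.76, 0.09 [-0.83, 0.87] and -1.37 in the same clusters. The minority library gave few UMIs in each cluster, for example 20 of Itgax from vehicle in cluster 0 and 8 from corticosterone in cluster 1.

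To compare shares of cells with a UMI, each cell was thinned to 1000 UMIs, which left 7281 vehicle and 15179 corticosterone microglia-like cells and left out 588 and 94. A Trem2 UMI was found in 84.4% [83.5, 85.2] of thinned vehicle cells and 72.2% [71.4, 72.9] of thinned corticosterone cells. Without thinning the shares were 95.3% and 97.2%, so the order of the libraries turned with depth. Tyrobp was found in 87.4% and 88.6% of thinned cells (96.2% and 99.3% unthinned), and Cd9 in 66.3% and 77.0% (89.7% and 98.0% unthinned). In neutrophil-like barcodes, which should lack Trem2, the thinned Trem2 share was 52.5% in vehicle and 19.5% in corticosterone, at median depths of 2740 and 3724 UMIs. In erythroid cell-like barcodes it was 72.6% [64.3, 79.9] and 70.1% [58.6, 80.0], and these barcodes held the microglia markers at 31261 and 29511 CPM, against 38816 and 35286 CPM in microglia-like cells. In corticosterone the microglia-like Trem2 share lay within the erythroid interval, so it cannot be read as above the share in erythroid cell-like barcodes. It was above the 19.5% of neutrophil-like barcodes and the 58.5% [54.9, 61.9] of border-associated macrophage-like cells in that library.

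The sparse genes were found in under 2% of thinned microglia-like cells. Itgax was in 0.453% of vehicle and 0.850% of corticosterone cells, Lpl in 0.522% and 0.850%, and Spp1 in 0.0687% and 0.191%. Cst7 was in 1.39% and 0.810%, and Lgals3 in 0.357% and 0.244%. The thinned Spp1 shares stand for 5 and 29 cells. Of the 9 genes, 5 had a higher share in corticosterone.

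Co-detection was set against the number of cells expected if 2 genes were found independently at equal depth. Trem2 and Tyrobp were found together in 74.0% of thinned vehicle cells against 73.8% expected, a ratio of 1.003 [0.989, 1.017]. In corticosterone they were found together in 64.5% against 63.9%, a ratio of 1.01 [0.997, 1.02]. The joint share and the Trem2 share were both lower in corticosterone, and the ratio was close to 1 in each library. Of the 36 pairs, 15 in vehicle and 18 in corticosterone had at least 10 expected cells, with ratios between 0.842 and 1.19 and medians of 1.01 and 1.07. None of these ratios had an interval above or below 1. Each of these pairs included Trem2, Tyrobp or Cd9, whose high shares limit how far a ratio can rise above 1. The intervals also treat the expected number as fixed. They therefore cannot decide whether small departures from independent detection were present.

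Pairs with under 10 expected cells, 21 in vehicle and 18 in corticosterone, got no ratio. Of these, 8 in each library were found in no cell, 10 and 9 were found above the expected number, and 3 and 1 were found below it. The pairs named next were picked for their high counts. In corticosterone Spp1 and Lpl were together in 7 cells against 0.246 expected, Cst7 and Lgals3 in 6 against 0.2998, Itgax and Lpl in 5 against 1.10, and Cst7 and Lpl in 5 against 1.05. In vehicle Itgax and Lpl were together in 4 cells against 0.172 expected. At least 2 of the 6 sparse genes were found in 8 of 7281 thinned vehicle cells against 1.92 expected, and in 21 of 15179 corticosterone cells against 4.87 expected. The cluster of 124 cells held 4 of the 8 vehicle cells and 8 of the 21 corticosterone cells. Outside it, 4 vehicle cells against 1.51 expected and 13 corticosterone cells against 4.06 expected held at least 2.

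**Figure D3:**
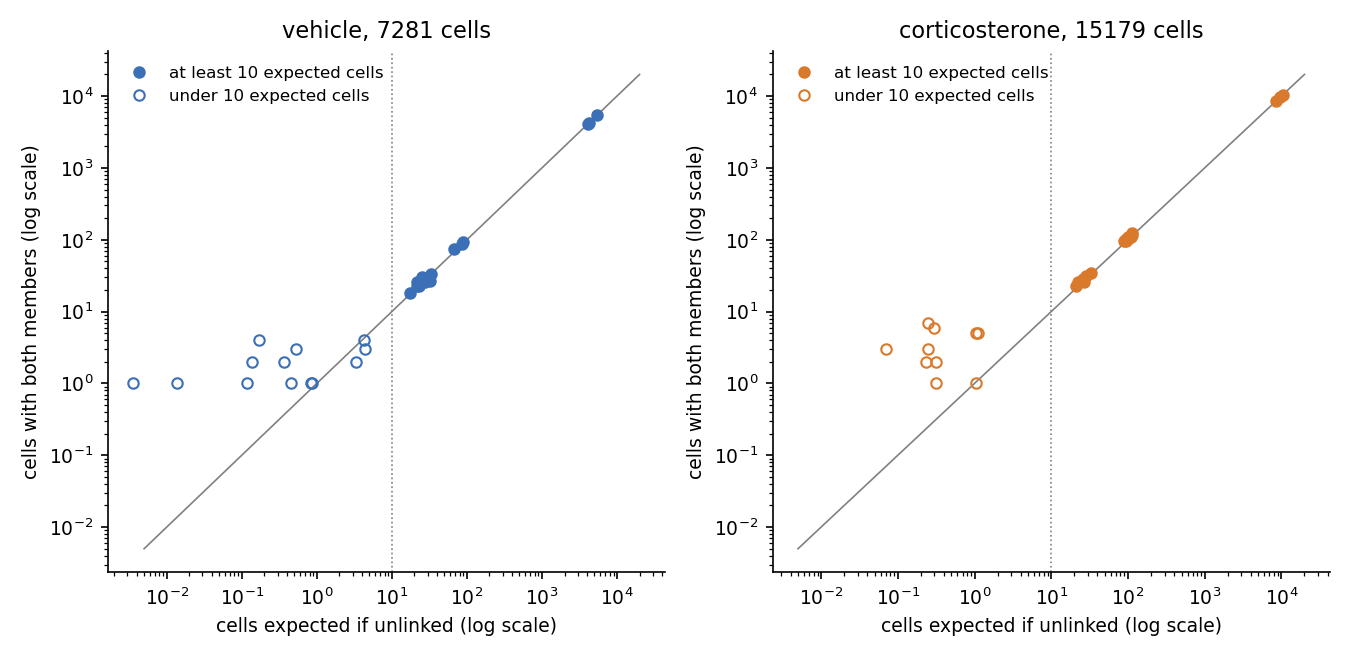
Cells in which both genes of a pair were found (y axis, log) against cells expected if the 2 were unlinked (x axis, log), in microglia-like cells thinned to 1000 UMIs, with pairs found in no cell left out. Filled points (at least 10 expected cells) lie along the line of equality. An open point (fewer expected cells) with under 1 expected cell can only lie above it, since pairs found in no cell are not drawn.

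Trem2 was lower in corticosterone in all 7 groups of at least 50 cells, with log2 ratios from -0.57 in microglia-like to -1.95 in monocyte-like cells. In border-associated macrophage-like cells it was at 1855 CPM under vehicle and 1095 CPM under corticosterone (-0.76 [-0.80, -0.72]). In neutrophil-like barcodes it was at 1156 and 462 CPM and in monocyte-like barcodes at 1531 and 398 CPM. Microglia markers in these barcodes also differed between the libraries, at 23045 and 12829 CPM in neutrophil-like, 29386 and 9551 CPM in monocyte-like and 34162 and 24812 CPM in border-associated macrophage-like cells. The part of microglial RNA in the Trem2 ratios of these classes was not tested. In the order of Trem2 levels, microglia-like cells came highest in both libraries. In vehicle border-associated macrophage-like cells and cluster 8, at 1788 CPM, came next with overlapping intervals, and neutrophil-like barcodes came last. In corticosterone cluster 8, erythroid cell-like and border-associated macrophage-like cells lay between 1095 and 1120 CPM with overlapping intervals, and neutrophil-like and monocyte-like barcodes, whose intervals also overlapped, came last.

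Tyrobp was higher in corticosterone in 6 of the 7 groups, by log2 ratios of at most 0.35, and lower in cluster 4 (-0.17). Neutrophil-like barcodes held Tyrobp at 2748 and 3291 CPM and monocyte-like barcodes at 2661 and 3384 CPM, each above the microglia-like level of the same library. Cd9 was higher in corticosterone in 6 of the 7 groups. Its ratio was 0.14 [0.10, 0.18] in border-associated macrophage-like cells, and in neutrophil-like barcodes, at 0.05 [-0.03, 0.14], the interval included 0.

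Spp1 and Lpl were both higher after corticosterone in border-associated macrophage-like cells, the macrophages of the meninges and perivascular spaces. Spp1 was at 4.28 CPM under vehicle and 66.1 CPM under corticosterone, a log2 ratio of 3.95 [3.52, 4.41]. It was found in 11 of 1078 vehicle cells (1.02%) and 96 of 799 corticosterone cells (12.02%), with the 10 highest corticosterone cells holding 56.7% of the UMIs. At 1000 UMIs per cell the shares were 0.477% and 4.74%. At resolution 1.0 the cells of this class fell into different clusters by library, one of 982 vehicle and 19 corticosterone cells and another of 85 and 755. Lpl was at 4.01 and 23.3 CPM there, a log2 ratio of 2.54 [2.05, 3.05], with 78.8% of the corticosterone UMIs in 10 cells. Both were past 2-fold, as 2 of the 7 genes with a mean of at least 5 CPM in that class, where 4.83% of 9750 genes were 2-fold different, and both reached 5 CPM through the corticosterone library alone. The 12 markers of this class summed to 4701 CPM under vehicle and 8888 CPM under corticosterone, and their part in these ratios was not tested. Spp1 was also higher in cluster 8, at 14.3 and 161 CPM (3.49 [2.82, 4.22]).

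Lgals3 was far higher in neutrophil-like and monocyte-like barcodes than in microglia-like cells. Monocyte-like barcodes held it at 433 CPM under vehicle and 1531 CPM under corticosterone (1.82 [1.56, 2.09]), and neutrophil-like barcodes at 263 and 514 CPM (0.97 [0.82, 1.11]). Over all cells Lgals3 was higher in corticosterone, with a log2 ratio of 0.50, whereas in microglia-like cells it was lower. Monocyte markers in the monocyte-like barcodes summed to 3355 CPM under vehicle and 17547 CPM under corticosterone, so the barcodes of this class were not alike in the 2 libraries. In monocyte-like barcodes 6 of the 8 genes with a mean of at least 5 CPM were past 2-fold, beside 34.6% of all genes at that level. Lpl and Lgals3 were higher, and Trem2, Cd9, Cst7 and Spp1 lower. Cst7 (3 and 2 UMIs) and Spp1 (10 and 1 UMIs) reached 5 CPM there through the vehicle library alone. In neutrophil-like barcodes 2 of 8 were past 2-fold (Trem2 lower and Spp1 higher), beside 10.3%. Cst7 had a log2 ratio below 0 in each of the 5 groups with UMIs in both libraries. It was -0.66 [-1.13, -0.20] in border-associated macrophage-like cells. The interval included 0 in cluster 4 (7 UMIs in vehicle and 7 in corticosterone), monocyte-like (3 and 2) and neutrophil-like barcodes (20 and 15). Cluster 8 held 45 Cst7 UMIs in vehicle and 0 in corticosterone.

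**Figure D4:**
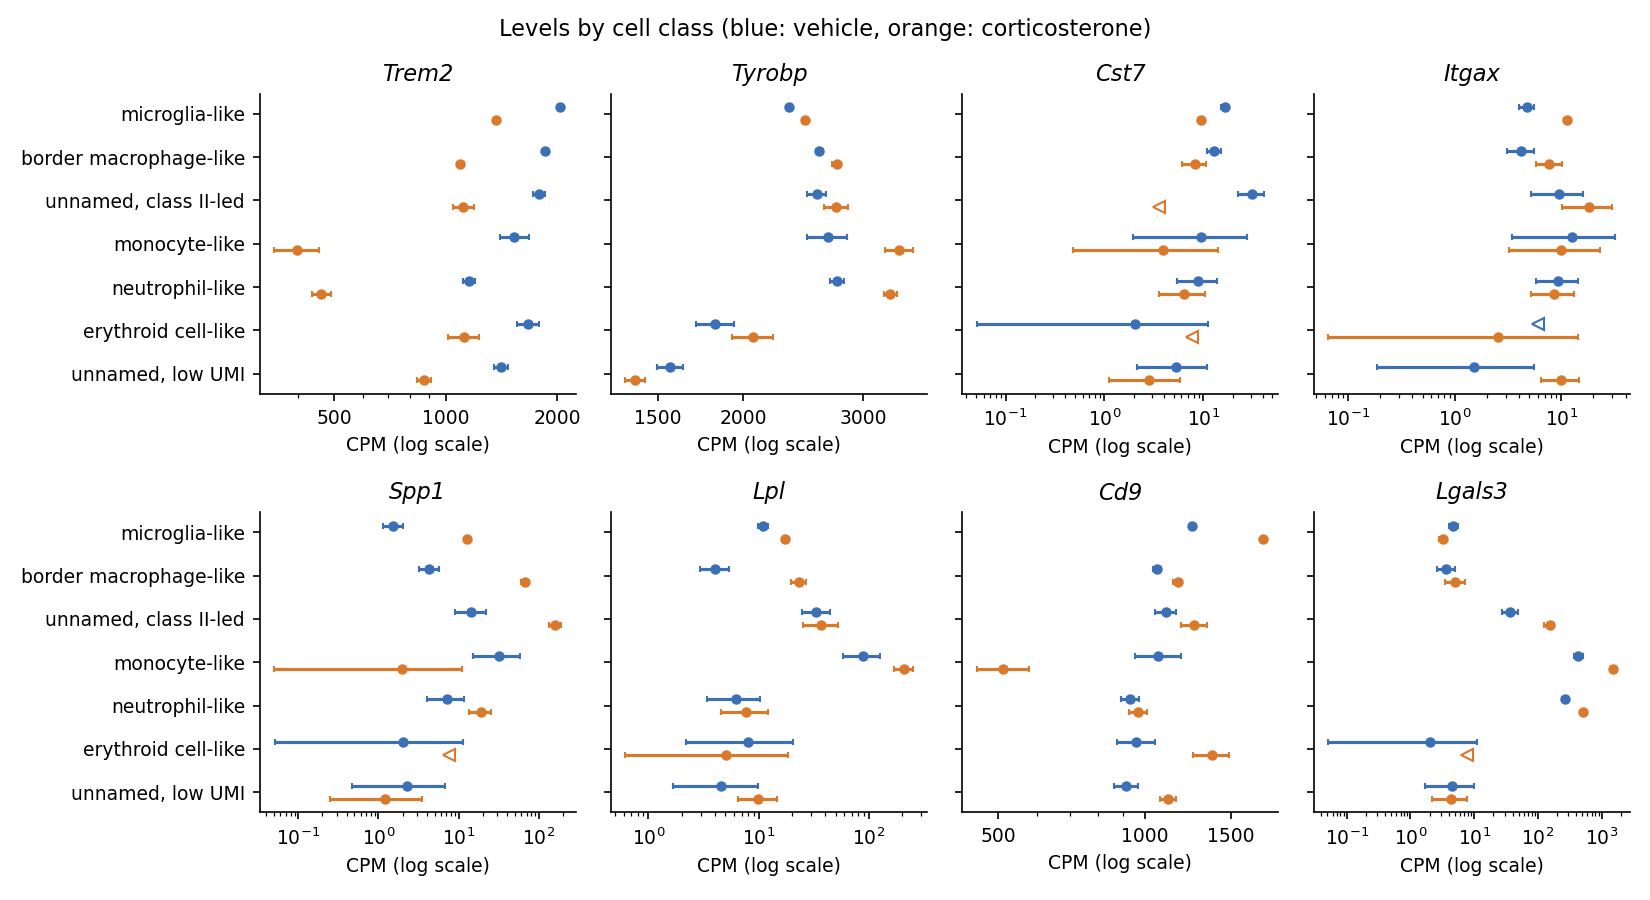
CPM (log axis) of 8 genes in the 7 groups of at least 50 cells, blue vehicle and orange corticosterone, with 95% Poisson intervals. Open triangles mark sums of 0 UMIs, drawn at 3 counts. Every orange Trem2 point lies left of its blue point, and Lgals3 is highest in monocyte-like and neutrophil-like barcodes.

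In the lists that follow, counts past 2-fold are read against the 2.24% of all 9676 genes that were 2-fold higher and the 2.05% that were 2-fold lower, and none is called particular to its list. Of 24 kinases, phospholipases, adaptors and proteases downstream of or cleaving the receptor, 23 had a mean of at least 5 CPM. Of these, 8 were higher and 15 lower in corticosterone, none by 2-fold, with a median log2 ratio of -0.10. The highest were the transmembrane adaptor Lat2 (0.83), the adaptor Hcst (0.37) and protein kinase Prkcd (0.34). The lowest were the phosphoinositide kinase subunits Pik3cg (-0.39) and Pik3r1 (-0.33) and the exchange factor Vav2 (-0.30). Syk, the kinase recruited by TYROBP, was at 155 CPM under vehicle and 138 CPM under corticosterone (-0.16). Of 14 TREM family and TYROBP-paired receptors, 3 reached 5 CPM. The TREM-like receptor Treml2 was at 12.6 and 42.7 CPM (1.76), the C-type lectin Clec5a had a ratio of 0.36, and Siglech had -0.10.

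Other genes of the disease-associated programme ran in both directions. Of 31, 25 reached 5 CPM, 18 were higher and 7 lower, 4 were 2-fold higher and 2 were 2-fold lower, and the median log2 ratio was 0.25. Apoe, the lipid carrier apolipoprotein E, was at 428 CPM under vehicle and 4525 CPM under corticosterone (3.40), and the surface glycoproteins Cd52 (1.92) and Cd34 (1.5004) followed. The fourth 2-fold higher gene, Axl, a receptor for apoptotic cells that was below the naming minimum and is named after its values were seen, was at 2.91 and 32.3 CPM (3.47) and reached 5 CPM through the corticosterone library alone. The protease inhibitor Serpine2 (-1.27), the chemokine Ccl6 (-1.17) and the pyrophosphate transporter Ank (-0.71) were lowest. Of 18 homeostatic genes, 5 were higher and 13 lower, 1 of them by 2-fold, with a median of -0.35. Fcrls was at 2854 and 616 CPM (-2.21), and the purinergic receptor P2ry12 (-0.80) and the fructose transporter Slc2a5 (-0.78) were next. The growth factor receptor Csf1r (0.29) and the TGF-beta receptor Tgfbr1 (0.22) were among the highest.

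Lipid handling genes had a median of -0.07, with 6 of 13 higher, 7 lower and 1 past 2-fold, the scavenger receptor Msr1 at 5.10 and 13.4 CPM (1.39), named after its values were seen. The lipid droplet coat Plin2 (0.69), the cholesterol carrier Npc2 (0.58) and the acid lipase Lipa (0.37) were highest among those with a mean of at least 20 CPM. The cholesterol exporter Abca1 (-0.55), the nuclear receptor Ppard (-0.44) and the lipoprotein receptor Lrp1 (-0.31) were lowest. Partners of osteopontin, galectin-3 and GPNMB had a median of 0.02, with 11 of 19 higher, 8 lower, 2 past 2-fold higher and 1 past 2-fold lower, the syndecan Sdc4 at 23.5 and 9.15 CPM (-1.36), named after its values were seen. Lgals3bp, a binding protein of galectin-3, was at 145 and 393 CPM (1.44). Itgb2, the integrin beta chain that pairs with the Itgax and Itgam products, was at 258 and 543 CPM (1.08), while Itgam, whose product CD11b was used in the sort, was at 520 and 351 CPM (-0.57).

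Over the 14 class-by-library sums of 7 groups, which share 2 libraries, the gene most alike Trem2 in log2(CPM + 10) was Rgs10 (Pearson r of 0.996), followed by Herpud1 (0.989), among 6478 genes. Tyrobp was most like Tmsb4x (0.979), and its r with Trem2 was -0.37. Lgals3 was most like Emb (0.992) and Vim (0.984), Lpl most like Naaa (0.958) and Cd9 most like Slc46a1 (0.925). Cst7 (Ids, 0.860) and Itgax (Tmod3, 0.795) had no gene as close.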

How the data were processed

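Per the labels' protocols, sorted microglia were made into Singleron GEXSCOPE polyA libraries and sequenced on an Illumina NovaSeq. Per the submitters' processing notes, bcl2fastq 2.19 and the build GRCm38 were used. The aligner, the counting program, the strand setting and the rule that called cells are not given in the sources used here. The authors deposited raw UMI counts per gene and barcode, whole numbers with no normalization. File names speak of wild type and depression where the labels speak of vehicle and corticosterone, and each file was given the group of its sample record.

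Of 10555 vehicle and 18113 corticosterone barcodes, 55 and 230 were removed by limits of at least 500 UMIs and 300 genes and at most 20% mitochondrial UMIs, leaving 49325067 and 85103539 UMIs. Scrublet in scanpy 1.11.5 called 0 doublets in either library, which was taken as a failure of the caller, and none were removed. Leiden clustering (leidenalg 0.10.2) used 2000 variable genes without the 10 genes under study, 30 components, 15 neighbours and resolution 0.5. A cluster was named where at least 3 markers of a class were found in at least 10% of its cells at 2-fold or more. Failing that, it was microglia-like where at least 3 microglia markers were found in at least 10% of its cells. The geometric mean of the microglia markers also had to reach 0.5 of their level over all cells. A cluster stayed unnamed where markers of another class led it, or where its UMI count was low and none of its own class's markers led it. These naming thresholds were set after the data were seen. The 10 genes, the gene lists, the markers and the alternatives were chosen with earlier results of these data known.

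UMIs were summed per class and library. Intervals are exact Poisson for CPM, exact conditional binomial for ratios and Clopper-Pearson for shares, at 95%. A difference counted as large at 2-fold, and a count of 0 was read as allowing up to 3 counts. Each cell was thinned by 1 seeded random draw without replacement. Genes named from a list were the 3 highest and 3 lowest log2 ratios with a mean of at least 20 CPM, and the genes most alike each gene were the 3 with the highest r. Some genes that these rules name are not reported here. On simulated counts for 9632 genes of the microglia-like comparison, with 200 changed, the intervals held the true ratio for 95.3% of genes. Those counts were drawn from the Poisson model on which the intervals rest. The simulation therefore checks the calculation only, and not the coverage for genes whose UMIs lie in few cells, such as Spp1. Scaling alternatives used edgeR 4.0.16 and DESeq2 1.42.0. Promoter windows are from RefSeq and gene positions from GENCODE M21, both on GRCm38.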

Additional observations from a re-analysis of the deposited data

Results flagged for a closer look

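In 6 cases a gene's log2 ratio of corticosterone over vehicle had the opposite sign in another class of cells than in microglia-like cells, with both counting intervals clear of 0 and 1 library per group. Other opposite signs in these classes had intervals that included 0, and endothelial cell-like barcodes, 39 in vehicle, were too few to be counted here. These differences between classes were not tested. Lgals3 was -0.55 in microglia-like cells but 2.05 in cluster 8, 1.82 in monocyte-like and 0.97 in neutrophil-like barcodes. Spp1 was 3.06 in microglia-like cells but -3.99 [-9.43, -1.18] in monocyte-like barcodes, where all 10 vehicle UMIs came from 1 cell and corticosterone had 1 UMI. Cd9 was 0.48 in microglia-like cells but -1.06 in monocyte-like barcodes, in which microglia markers were at 29386 and 9551 CPM (vehicle and corticosterone). Tyrobp was 0.08 in microglia-like cells but -0.17 in the low-UMI cluster 4.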

How the results depend on the processing

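The number of genes past 2-fold in microglia-like cells was 2. It was 5 at Leiden resolution 1.0, where an unnamed cluster of 5575 vehicle cells was left out and 2166 were called microglia-like. Those 5 were Spp1, which was higher, and Cst7, Lpl, Lgals3 and Gpnmb, which were lower. The UMIs of Gpnmb are too few to place it. The number was 1 (Itgax) with the 10 genes kept among the variable genes. There a cluster of 58 vehicle and 56 corticosterone cells, led by Spp1, went unnamed and out of the sums. The number was also 1 with cells thinned to 1000 UMIs (Spp1) and without the cluster of 124 cells (Itgax), and 4 at 1.5-fold. No share of all genes was computed for these alternatives. In the main sums the 5th and 95th percentiles of the log2 ratio over the 9676 genes were -0.67 and 0.64. At resolution 1.0 the median log2 ratio was -0.56, Itgax was -0.0024 and Lpl was -1.53. Lgals3 was 0.50 both with every barcode and with all filtered cells. The cause of the Lgals3 shift was not tested. By a per-cell marker rule (987 and 1465 cells) the 2 genes past 2-fold were Cst7 (-1.31) and Lgals3 (-1.17, with an interval that includes 0), Itgax was 0.52 and Spp1 gave no ratio, so neither call was kept. DESeq2 size factors added 0.10 to every log2 ratio and edgeR TMM factors 0.09. Over 14 alternatives Trem2 stayed between -0.58 and -0.47, Tyrobp between 0.03 and 0.18 and Cd9 between 0.34 and 0.59. Spp1 ranged from 0.34 to 3.17 over 13. The alternatives without the cluster of 124 cells, without the highest cell, without the 6% highest doublet scores and without Gpnmb were added after seeing the data. The depth limits Gpnmb, with 4 UMIs, and pairs of sparse genes. No paired analysis was possible because each group has 1 library.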
